A study of Mus musculus with 4 samples.

Results

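Wide H3K4me3 regions that carried no called H3K27me3 were examined in mouse rosette stem cells, pluripotent cells held between the naive and the primed state. The regions were chosen by their width and overlaps in the deposited lists: an H3K4me3 region of the line CGR8 on chromosomes 1 to 19 was kept when it was at least 5000 bp wide, overlapped an H3K4me3 region of the line R1 by at least 1 bp, and overlapped no H3K27me3 region of either line. This gave 1235 regions of the 25241 H3K4me3 regions of CGR8, 24589 of which lay on chromosomes 1 to 19. They are called the wide free regions here. The number moves with the limit, to 2343 at 4000 bp and 657 at 6000 bp.

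CGR8 (strain 129/Ola) and R1 (strain 129) are embryonic stem cell lines. Both were kept for 8 days on plates coated with gelatin and serum, in N2B27 medium with LIF, 2 µM IWP2, an inhibitor of WNT secretion, and 1 µM of the MEK inhibitor PD325901. Chromatin immunoprecipitation was sequenced in 1 library of each line and mark, so the 4 libraries form an H3K4me3 group and an H3K27me3 group of 2 lines each. Each line stands for itself, with no repeat culture given, and the cell state itself was not checked against marker genes. A difference between the lines therefore has no replicate check, since it sets 1 library against 1 in each mark. Only the marks could be set 2 against 2 libraries, where an exact permutation allows no two-sided p below 0.333. That comparison was not made, and values are described with no test. Positions refer to mm9, with the first base numbered 1 and the last base included. No gene annotation of that build was used here, so regions are given by position and no gene is named.

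H3K4me3 is written at promoters, above all at CpG-rich ones, by the SET1 and MLL methyltransferase complexes. H3K27me3 is written by Polycomb repressive complex 2, and in pluripotent cells both marks meet at many promoters of developmental genes. Most H3K4me3 regions are short. Unusually wide ones have been described in many cell types, often at genes that are steadily transcribed or that define the cell type.

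Few H3K4me3 regions were wide, and most of the wide ones were free of H3K27me3. Of the 24589 regions, 1424 (5.79%) were at least 5000 bp wide, and 1418 of these overlapped an R1 region. The 6 that did not were 5000 to 7000 bp wide with only 11.5 to 27.1 score units per kb, and all 6 were free of H3K27me3. Of the 1418, 1235 (87.1%) were free of H3K27me3, 146 carried it in both lines, 5 in CGR8 alone and 32 in R1 alone. Among regions shared with R1, the free share was 56.9% at 1000 to 2000 bp (95% exact binomial interval 55.8% to 57.9%), 81.2% at 4000 to 5000 bp (79.0% to 83.2%), 89.2% at 6000 to 8000 bp (86.1% to 91.7%) and 84.1% from 10000 bp on (74.8% to 91.0%, 74 of 88 regions). The free share was higher in each class above 2000 bp than in the class of 1000 to 2000 bp. Intervals here and further on cover counting error over regions only, and regions are not replicates. Free means that no H3K27me3 was called there, and uncalled mark may remain.

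The wide free regions were 5.02% of the H3K4me3 regions of chromosomes 1 to 19 in CGR8 and held 14.2% of the bases and 18.4% of the summed score. They covered 8.18 Mb in CGR8. Their 1385 partner regions covered 7.47 Mb in R1, where they made up 5.78% of the regions, 13.8% of the bases and 17.6% of the summed score. The bases covered in both lines came to 7.12 Mb. The score is the authors' deposited value for each region. It grows with width and with read number, so it was divided by the width in kb.

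The width of the regions was centred close to the limit, with a long tail. The median was 6000 bp in CGR8 (middle 50% of regions 5400 to 7200 bp) and the widest 20400 bp. Of the regions, 578 (46.8%) were under 6000 bp wide, 453 (36.7%) were 6000 bp or more but under 8000 bp, 130 (10.5%) were under 10000 bp beyond that, and 74 (5.99%) were at least 10000 bp wide. Just inside the limit, 152 regions were 5000 bp wide, with a median R1 width of 4600 bp and 530 (CGR8) and 532 (R1) score units per kb. Just outside it, 174 free shared regions were 4800 bp wide, with a median R1 width of 4400 bp and 447 and 455 score units per kb.

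The width found in CGR8 was largely found again in R1, which the rule had used only for the presence of an overlap. The R1 width is the sum over all R1 regions that overlapped the CGR8 region. Its median was 5600 bp, with a range from 1000 to 20200 bp. In R1, 893 of the 1235 (72.3%, interval 69.7% to 74.8%) were again at least 5000 bp wide. The same held for 7.80% of all free shared regions and for 6.18% of all shared regions on these chromosomes. CGR8 width had chosen the members, so nothing is read from that gap. The lines differed in width by a factor of at most 1.25 in 943 regions (76.4%), of at most 1.5 in 1126 (91.2%) and of at most 2 in 1203 (97.4%). A factor of at most 1.25 was about as common in free shared regions of 2000 to 3000 bp (74.4%), 3000 to 4000 bp (76.0%) and 4000 to 5000 bp (74.3%). It was less common at 1000 to 2000 bp (66.9%). The rank correlation of CGR8 and R1 width over the 1235 regions was 0.705, and that of the score 0.968. These run across regions of 1 library per line and a narrowed range of widths.

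CGR8 was the wider line in 807 of the regions, R1 in 304, and the widths were equal in 124. The median log2 width ratio was 0.10 (CGR8 over R1, interval 0.08 to 0.11). Since CGR8 width had chosen the regions, the choice was also turned round. With R1 width choosing, 1013 regions met the rule, and their median log2 ratio was 0.00, with CGR8 wider in 455, R1 in 436 and equal widths in 122. Of these 1013, 862 (85.1%, interval 82.7% to 87.2%) were at least 5000 bp wide in CGR8. The choice favours the width of the line that chooses. With R1 choosing, the ratio was 0.00 and not the mirror image of 0.10 in favour of R1. Neither ratio alone thus measures a width difference between the lines, and 0.00 does not show that there was none. In 824 of the 1013 an overlapping CGR8 region was itself among the 1235.

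The wider a region was in CGR8, the more often it passed the limit in R1. The limit is fixed, so a wider region can lose more width before it falls below it. The share of regions at least 5000 bp wide in R1 was 54.2% below 6000 bp, 83.7% from 6000 to 8000 bp, 98.5% from 8000 to 10000 bp (128 of 130) and 98.6% from 10000 bp on (73 of 74). The median ratio changed little across these classes, from 0.07 to 0.11 on the log2 scale. Of the 74 regions of at least 10000 bp, 50 reached 10000 bp in R1 when partners were summed, and 41 within a single R1 region.

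**Figure D1:**
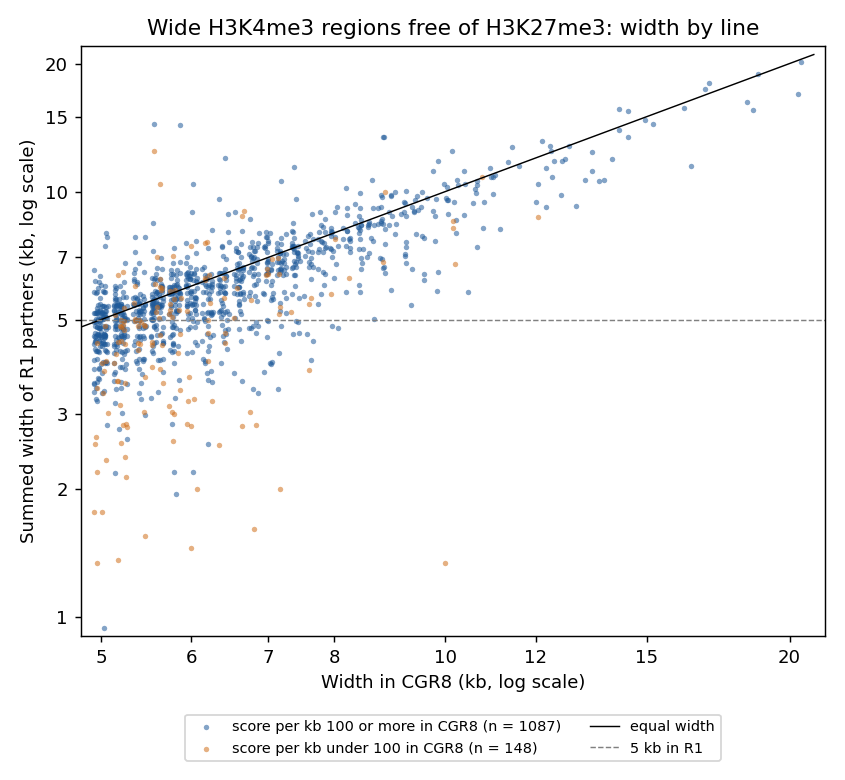
Summed width of the overlapping R1 regions (y axis, kb, log scale) against the width in CGR8 (x axis, kb, log scale) for the 1235 wide free regions, 1 point each with a small random shift, coloured by CGR8 score per kb below or from 100 on. Points follow the line of equal width up to 20400 bp in CGR8, 893 lie at or above 5 kb in R1, and most points far below the line have under 100 score units per kb.

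Edges were kept to within a few windows of 200 bp. For 1057 regions (85.6%) a single R1 region stood against a single CGR8 region. Of their 2114 edges, 435 (20.6%) fell on the same base, 1076 (50.9%) lay within 200 bp and 1831 (86.6%) within 1000 bp. CGR8 reached further out at 1133 edges and R1 at 546. Both edges lay within 200 bp in 264 pairs (25.0%). In 153 pairs (14.5%) 1 edge was kept within 200 bp while the other lay over 1000 bp apart, against 19 pairs (1.80%) with both edges over 1000 bp apart. The median share of bases covered by both lines, of those covered by either, was 88.2% in these pairs, and 10% of the pairs lay below 66.7%.

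Some regions met more than 1 R1 region. Each was a single unbroken call in CGR8 by the rule, so the count is of breaks in R1, for which a wider region has more room. The count of CGR8 pieces with R1 choosing is not given, so the breaks are not shown to be a trait of R1. The 1235 regions had 1 R1 partner in 1088 cases, 2 in 139 and 3 in 8, while 5 R1 regions spanned 2 of them. More than 1 partner was found for 7.09% of regions below 6000 bp, 12.1% from 6000 to 8000 bp, 20.8% from 8000 to 10000 bp and 32.4% from 10000 bp on. In both H3K4me3 lists gaps of up to 200 bp had been joined, so a gap of 400 bp ends a region. Counted by the widest single partner, 829 regions (67.1%) were at least 5000 bp wide in R1.

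The 10 widest regions, by mean width over the lines, lay on 8 chromosomes and were 14.2 to 20.4 kb wide in CGR8 and 14.8 to 20.2 kb in R1. The widest, chr15:25680201-25700600, was 20.4 kb wide in CGR8 and 20.2 kb in R1, where it fell into 2 pieces, the larger of 16.2 kb. The next, chr2:162875601-162894400, was 18.8 kb wide in CGR8 and a single region of 19 kb in R1. The third, chr8:44376601-44397000, was 20.4 kb wide in CGR8 and 17.0 kb in R1 in 2 pieces. These 3 differed between lines by a factor of at most 1.20.

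Among the others, chr13:23514201-23531200 was 17.0 kb in CGR8 and 18.0 kb in R1, and chr16:22396601-22415000 was 18.4 kb and 16.2 kb. The region chr10:62345201-62362000 was 16.8 kb in CGR8 and 17.4 kb in R1, and chr3:41358201-41376800 was 18.6 kb and 15.6 kb. On chromosome 6, chr6:122281201-122297400 was 16.2 kb in CGR8 and 15.8 kb in R1, and chr6:122651601-122666600 was 15.0 kb in CGR8 and 14.8 kb in R1 in 2 pieces. The last, chr15:97202801-97217000, was 14.2 kb in CGR8 and 15.6 kb in R1 in 2 pieces, the larger of 10.8 kb. CGR8 was wider in 6 of the 10 and R1 in 4. The choice by width held the widths of the 10 close together but not their score per kb. The lowest score per kb was at chr16:22396601-22415000 with 162 in CGR8 and 168 in R1. The highest in CGR8 were at chr2:162875601-162894400 with 465 (309 in R1) and chr3:41358201-41376800 with 464 (504 in R1). All 10 stood at or below the median score per kb of the wide free regions in CGR8, which was 469.

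Large disagreements in width were few. In 29 regions CGR8 was over 2 times wider, and in 3 R1 was. The 29 had a median of 49.8 score units per kb in CGR8 and 44.7 in R1, and 21 of them had under 100 in CGR8. The largest ratio was at chr14:63782801-63792800, 10.0 kb wide in CGR8 and 1.4 kb in R1, with 49.8 and 133 score units per kb. It was followed by chr2:169964401-169969400 (5.0 kb in CGR8, 1.0 kb in R1), chr1:84853601-84859600 (6.0 kb and 1.4 kb), chr5:149765601-149772400 (6.8 kb and 1.6 kb) and chr10:8551201-8556400 (5.2 kb and 1.4 kb). In these 5 the R1 partner was a short region inside the span called in CGR8.

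In the other direction, 2 neighbours with 400 bp between them, chr2:165629601-165635200 (5.6 kb) and chr2:165635601-165641400 (5.8 kb), met 1 R1 region of 14.4 kb. The region chr11:97665201-97670800 (5.6 kb in CGR8, with 32.3 score units per kb) met 3 R1 regions of 12.4 kb in all. At chr8:107753801-107759400, 5.6 kb in CGR8 stood against 10.4 kb in R1. All 4 of these lay 400 bp from another wide free region. The remaining one, chr9:61216801-61223200, was 6.4 kb in CGR8 with 744 score units per kb and 12 kb in R1 with 365, and its nearest wide free region was 1430.8 kb away.

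Width agreed less well where the mark was thin in CGR8. With the regions divided by CGR8 score per kb into 4 classes of equal size, the lowest (19.4 to 257) kept at least 5000 bp in R1 in 58.6% of cases (interval 52.9% to 64.1%), and the others in 76.3% to 78.0%. Widths within a factor of 1.25 were found in 60.5% of the lowest class, 77.0% and 78.9% of the middle ones and 89.0% of the highest (670 to 1554). More than 1 R1 partner was found for 23.0% of the lowest class and 3.88% of the highest. Divided by R1 score per kb instead, both the lowest and the highest class of the same regions kept 5000 bp in R1 in 61.2% of cases (interval 55.5% to 66.6%), and those between in 82.5% and 84.4%. The low share of the thinnest class was thus found with either score, and that of the highest class with the R1 score, which is itself divided by the R1 width. With R1 choosing and R1 classes, 81.9% of the lowest class (interval 76.6% to 86.4%) and 87.7% of the highest (83.1% to 91.5%) were at least 5000 bp wide in CGR8, a smaller gap with intervals that overlap.

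In score per kb, the wide free regions stood above wide regions carrying H3K27me3 and above the whole of the narrower free regions. Their median was 469 in CGR8 (middle 50% 257 to 670) and 482 in R1 (259 to 668), a mean of 475 ± 9.24 (SD, n = 2 lines). The 183 shared regions of at least 5000 bp that carried H3K27me3 had medians of 346 in CGR8 and 340 in R1, a mean of 343 ± 3.87 (SD, n = 2). The ratio was 1.36 in CGR8 and 1.42 in R1. The gap exceeded the SD between the lines, which compares the same regions in 1 library per line. That SD holds no repeat culture or library, so it is no measure of the error within a line. The 13595 narrower free regions had medians of 215 in CGR8 and 228 in R1, a mean of 221 ± 9.78 (SD, n = 2). That made a ratio of 2.18 in CGR8 and 2.11 in R1.

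The lists show how many reads such scores stand for. The median score per 200 bp window of a wide free region, 93.7 in CGR8 and 96.3 in R1, is that of a window with 32.5 and 32.8 reads, 43.9 and 46.4 times the mean number per window on which the scores of each library rest. For the wide regions carrying H3K27me3 it was 34.9 times in CGR8 and 35.7 times in R1. Windows inside a region that score 0 are averaged in, so these are read numbers of an even profile with the same score.

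Among narrower free regions, the lowest medians were those of regions under 2000 bp. Free regions of 3000 to 4000 bp had 491 score units per kb in CGR8 and 507 in R1, and those of 4000 to 5000 bp 483 and 508. The wide classes had 476 and 498 (5000 to 6000 bp), 489 and 496 (6000 to 8000 bp), 439 and 446 (8000 to 10000 bp), and 383 and 388 (from 10000 bp on). By these class medians, score per kb lay between 476 and 508 from 3000 to 8000 bp and was lower in the widest classes, in both lines, while free regions of 1000 to 2000 bp had 89.9 and 93.1. Single widths varied more than the classes, as the values at 5000 bp (530 in CGR8, 532 in R1) and 4800 bp (447 and 455) show. Over the 1235 regions, the rank correlation between width and score per kb was -0.05 in CGR8 and 0.01 in R1 (R1 width and R1 score), across regions of 1 library each.

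Compared with regions carrying H3K27me3 in the same width class, the free ones had higher medians in every class from 2000 bp on, in both lines. At 5000 to 6000 bp the free regions had 476 in CGR8 and 498 in R1, against 344 and 355 for the 100 carrying regions. From 10000 bp on, the free regions had 383 in CGR8 and 388 in R1, against 379 and 352 for only 14 carrying regions. Below 2000 bp the carrying regions had the higher medians, with 89.9 in CGR8 and 93.1 in R1 for free regions of 1000 to 2000 bp against 168 and 176 for those carrying H3K27me3.

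**Figure D2:**
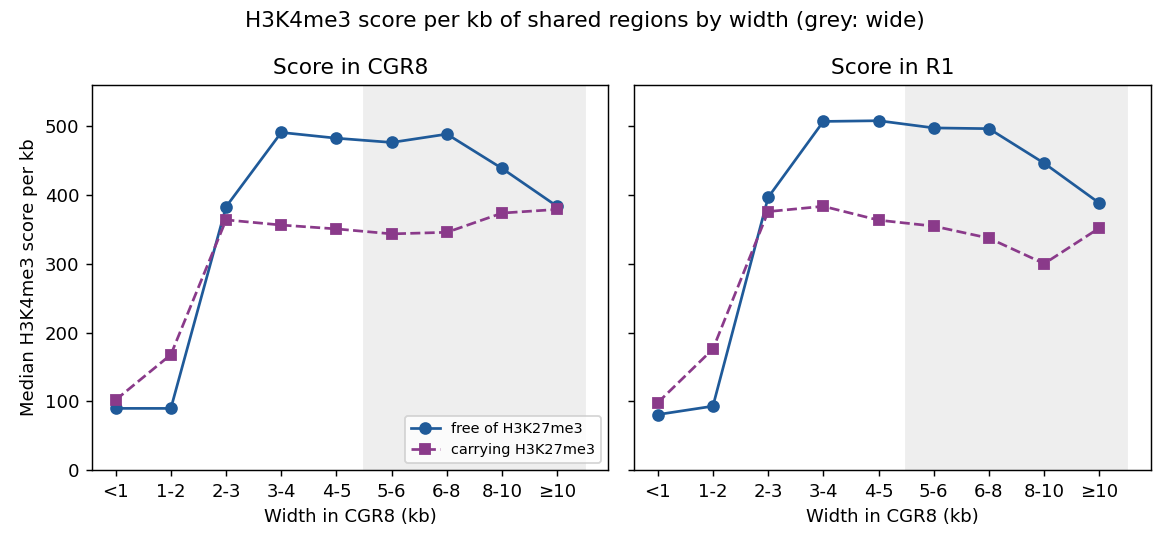
Median H3K4me3 score per kb (y axis) by width class in CGR8 (x axis, kb) for regions shared by both lines, free of H3K27me3 (circles) or carrying it (squares), scored in CGR8 (left) and R1 (right); the grey field marks widths of at least 5 kb. Medians of free regions lie at 476 to 508 from 3 to 8 kb and at 383 (CGR8) and 388 (R1) at 10 kb and more, above carrying regions in every class from 2 kb on in both lines.

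Score per kb was kept between the lines. It differed by a factor of at most 1.25 in 893 of the 1235 regions (72.3%), of at most 1.5 in 1135 (91.9%) and of at most 2 in 1212 (98.1%), with a rank correlation of 0.942 over the 1235 regions. It was over 2 times higher in CGR8 in 10 regions and in R1 in 13. Of the 23, 10 had another CGR8 H3K4me3 region within 1 kb. The 5 regions of the highest mean rank over the lines were chr12:110029001-110034600 (1509 in CGR8, 1218 in R1), chr13:58226801-58231800 (1224 and 1285), chr11:102176601-102182400 (1511 and 1200), chr16:90281201-90286200 (1196 and 1292) and chr1:88420801-88429400 (1188 and 1216). Of these, 4 were under 6000 bp wide in CGR8 and the last was 8.6 kb wide.

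A thin class stood at the other end. Under 100 score units per kb were found in 148 of the wide free regions in CGR8 (11.98%) and in 151 in R1 (12.2%), and 128 were so in both. Wide regions carrying H3K27me3 were that thin in 12 of 183 cases in CGR8 (6.56%) and in 7 in R1 (3.83%). Narrower free regions were that thin more often, in 36.1% of cases in CGR8 and 35.9% in R1. In CGR8 the share was 16.1% for free regions of 4000 to 5000 bp and 15.7% for those of 5000 to 6000 bp. With R1 choosing, 7.31% of 1013 wide free regions and 5.17% of 174 wide carrying ones were under 100 in R1, so the gap between these wide sets was smaller there. Of the narrower free regions, 36.5% were under 100 with that choice. The 148 had medians of 54.7 score units per kb in CGR8 and 53.1 in R1, a median width of 5700 bp in CGR8 and 4800 bp in R1, and 70 (47.3%) reached 5000 bp in R1, against 823 of the other 1087 (75.7%). Another CGR8 H3K4me3 region lay within 1 kb of 29 of the 148 (19.6%), against 127 of the 1087 (11.7%), and within 5 kb of 83 (56.1%), against 413 (38.0%). The adjoining regions within 1 kb had a median of 259 score units per kb in CGR8 (29 cases, the highest neighbour taken). The thin regions were chosen for a low score and the neighbour for the highest, so nothing is read from that gap. No such value is given for the neighbours of the 127.

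The wide free regions lay close to each other more often than other regions lay close to them. The median gap to the nearest other wide free region was 175 kb, with a range from 400 bp to 22.6 Mb. Their mean spacing over the 2471 Mb spanned by the lists was 2.00 Mb. A mean spacing is not a nearest gap, so the 2 values are not set against each other, and no random placement was made. Another one lay within 10 kb of 148 (11.98%), within 50 kb of 375 (30.4%) and within 100 kb of 503 (40.7%, interval 38.0% to 43.5%). Seen from narrower free regions, a wide free region lay within 100 kb of 28.7% (interval 28.0% to 29.5%). Seen from wide regions carrying H3K27me3, it lay within 100 kb of 19.7% (14.2% to 26.2%), and from narrower regions carrying H3K27me3 within 100 kb of 16.3% (15.4% to 17.2%). With R1 choosing, the shares within 100 kb were 33.2% for wide free regions (interval 30.3% to 36.2%), 14.4% for wide carrying ones (9.52% to 20.5%) and 25.8% for narrower free ones (25.1% to 26.5%). The order was the same in both lines. The median number of other CGR8 H3K4me3 regions of any kind within 50 kb was 3 for the wide free, the wide carrying and the narrower free regions.

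**Figure D3:**
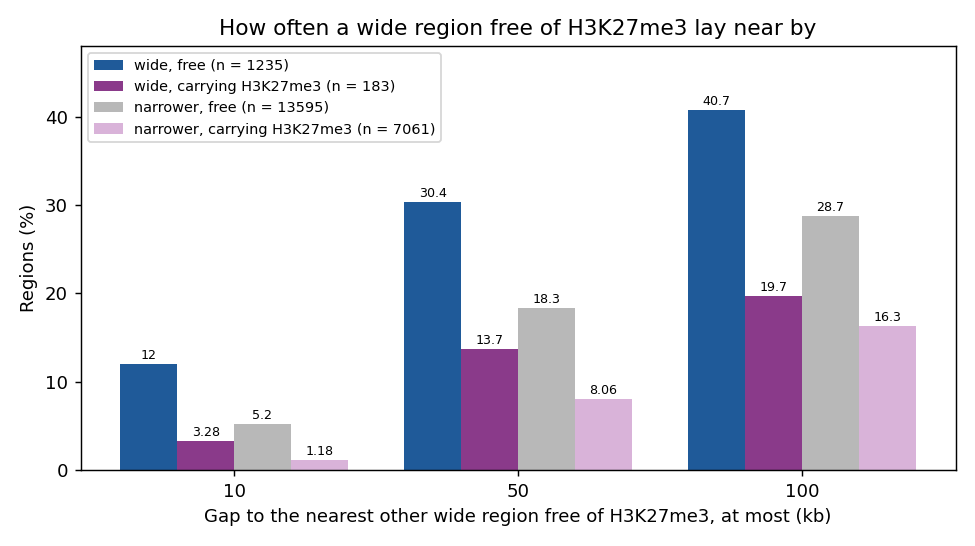
Share of regions (y axis, %) with a wide free region, other than itself, at a gap of at most 10, 50 or 100 kb (x axis), for wide free, wide carrying, narrower free and narrower carrying regions. At 100 kb the shares are 40.7%, 19.7%, 28.7% and 16.3%.

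Some neighbours were parted by short gaps only. Of the 1235 regions, 18 lay 400 bp from another, 51 (4.13%) within 2 kb, and 156 (12.6%) had some other CGR8 H3K4me3 region within 1 kb, against 11.5% of wide carrying and 6.22% of narrower free regions. With CGR8 regions under 1000 bp apart merged, 1442 regions met the rule and 45.0% of them had another within 100 kb.

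Linked by gaps of at most 50 kb, 860 regions (69.6%) stood alone, 118 pairs formed, and 139 regions (11.3%) fell into 43 runs of at least 3. The runs numbered 34 of 3 regions, 8 of 4 and 1 of 5, spanned 21.8 to 115.6 kb and lay on 17 of the 19 chromosomes, with 6 each on chromosomes 7 and 11. H3K27me3 of either line was called between the members of only 2 runs. Regions in runs had a median of 325 score units per kb in CGR8 and 339 in R1, against 479 and 497 for the others, and a median width of 6400 bp against 6000 bp.

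The longest run lay at chr17:46915601-47031200. Its 5 regions were 5000, 5400, 12200, 6400 and 5600 bp wide in CGR8 and 5000, 5400, 13200, 6000 and 5000 bp in R1, and thus kept their widths within 1000 bp. Score per kb within it ranged from 48.5 to 702 in CGR8 and from 71.9 to 770 in R1. Runs of 4 lay at chr13:23589001-23670000, chr15:79721001-79804200, chr15:98761001-98864600, chr16:8734401-8835800, chr17:37114001-37189400, chr3:88332601-88428400, chr4:106508201-106587000 and chr4:132593601-132689200. The run on chromosome 13 had the largest summed width of the 43, 35.4 kb over a span of 81.0 kb, and all 4 of its regions were at least 7400 bp wide in R1. H3K27me3 lay 0.2 kb from its nearest region. All regions reached 5000 bp in R1 in that run, in the one of chromosome 16, in chr4:106508201-106587000 and in the longest run.

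Of the runs of 3, the one at chr6:122651601-122719400 held a region among the 10 widest and had 33.4 kb of summed width over 67.8 kb, and chr19:23157601-23228400 had 33.0 kb over 70.8 kb. The tightest, chr7:148136401-148158200, packed 18.6 kb of H3K4me3 into 21.8 kb. The thinnest lay at chr9:114433801-114474600, with medians of 71.8 score units per kb in CGR8 and 70.1 in R1, and all 3 of its regions were again at least 7000 bp wide in R1. At chr12:87806801-87847400 the medians were 76.4 and 102, and 1 of 3 regions reached 5000 bp in R1. The other runs of 3 were 15.2 to 23.4 kb in summed width, apart from 28.8 kb in the run of chromosome 9 and 28.0 kb in that of chromosome 12 just given.

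Across chromosomes, wide free regions followed the number of H3K4me3 regions. They made up 3.38% (chromosome 18, 25 of 739) to 6.46% (chromosome 17, 77 of 1192) of the CGR8 H3K4me3 regions, against 5.02% over all 19. The intervals lay below that value on chromosomes 2 (3.89%, interval 3.09% to 4.81%) and 18 (2.201% to 4.95%) and above it on chromosome 17 (5.13% to 8.01%), with no adjustment for 19 comparisons. Per Mb there were 0.275 on chromosome 18 and 1.00 on chromosome 11, which also had the most H3K4me3 regions per Mb (16.8). The median log2 ratio of score per kb (CGR8 over R1) was 0.02 over all regions and lay between -0.04 and 0.07 on each chromosome.

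**Figure D4:**
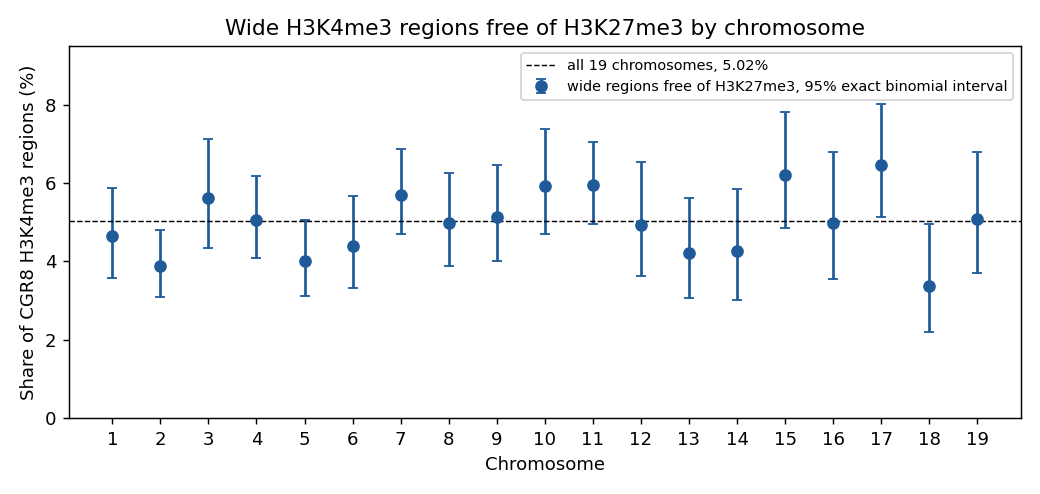
Share of CGR8 H3K4me3 regions that were wide and free of H3K27me3 (y axis, %) on each of 19 chromosomes (x axis), with 95% exact binomial intervals and the share over all (dashed, 5.02%). Chromosome 17 lies highest at 6.46% and chromosome 18 lowest at 3.38%.

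A block of chromosome 1 from 104 to 124 Mb, where CGR8 had 34 H3K27me3 regions and R1 565, held 1 wide free region, described here after its values were seen. This region, chr1:115853801-115861600, was 7800 bp wide in both lines. It had 222 score units per kb in CGR8 and 613 in R1, and its nearest H3K27me3 region was 1536 kb away in CGR8 and 14.0 kb in R1. The other 63 wide free regions of chromosome 1 had a median log2 ratio of score per kb of 0.01 and median distances to H3K27me3 of 71.6 kb (CGR8) and 73.0 kb (R1).

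Immediate neighbourhoods of H3K27me3 held few wide free regions. The distance is the number of bases between the nearest edges, and an overlap was barred by the rule. The median distance was 58.8 kb to CGR8 H3K27me3 and 62.0 kb to R1 H3K27me3, a mean of 60.4 ± 2.26 kb (SD, n = 2), and 51.2 kb to the nearer of both (middle 50% 23.3 to 103 kb). H3K27me3 of either line lay within 5 kb of 52 of the 1235 regions (4.21%, interval 3.16% to 5.49%), against 1418 of 13595 narrower free regions (10.4%, interval 9.92% to 10.96%). By line, the shares within 5 kb were 3.32% against 8.25% for CGR8 and 3.24% against 7.80% for R1. Within 10 kb it was 11.3% of wide free regions against 17.8% of narrower free ones, and within 100 kb 74.1% against 75.3%. Within 50 kb it was 49.0% against 53.7%, and within 1000 kb 99.9% against 99.6%. The sets thus differed near H3K27me3. The shares are cumulative and must meet far out, so nothing is read from their meeting. From 50 to 100 kb alone lay 25.1% of wide free and 21.6% of narrower free regions. With R1 choosing, the shares within 5 kb were 4.74% (interval 3.51% to 6.23%) against 10.0% (9.54% to 10.6%).

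Regions that overlapped H3K27me3 were left out of both sets, and the part of this in the shares was not tested. By width, H3K27me3 lay within 5 kb of 13.4% of free regions of 1000 to 2000 bp, 7.401% of those of 4000 to 5000 bp, 4.15% of those of 5000 to 6000 bp and 5.41% of those of 10000 bp or more (4 of 74, interval 1.49% to 13.3%). The medians differed less than these shares, by a ratio of 1.14 for CGR8 and 1.11 for R1 (wide free over narrower free). With the higher-scoring 50% of each list, the median distance of wide free regions to the nearer H3K27me3 region was 81.3 kb.

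**Figure D5:**
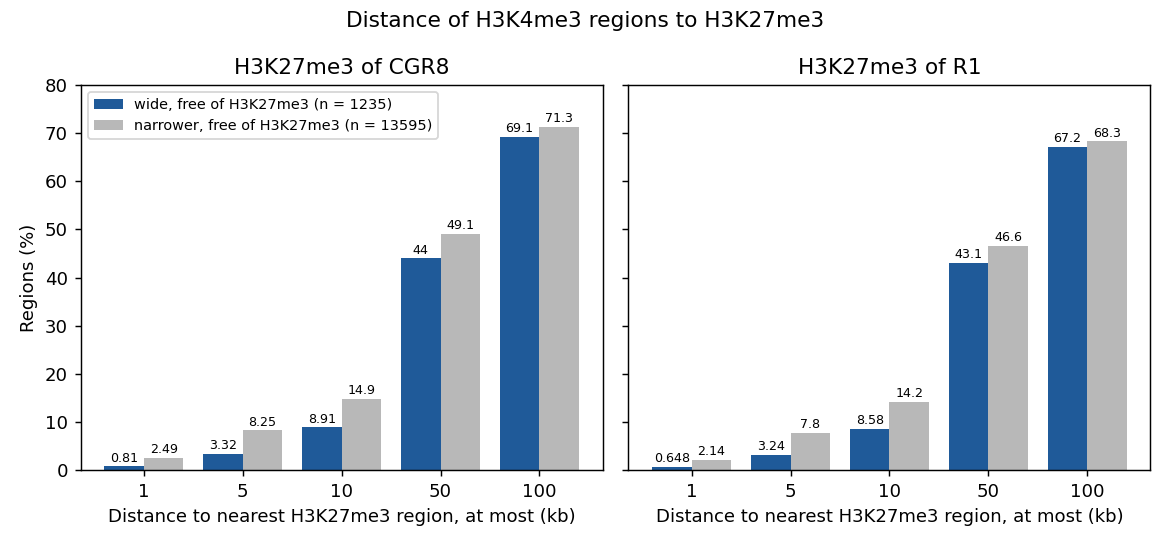
Share of free H3K4me3 regions (y axis, %) whose nearest H3K27me3 region lay within 1, 5, 10, 50 or 100 kb (x axis), in CGR8 (left) and R1 (right), for wide (blue) and narrower regions (grey). Within 5 kb the shares are 3.32% against 8.25% (CGR8) and 3.24% against 7.80% (R1), and within 100 kb 69.1% against 71.3% and 67.2% against 68.3%.

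H3K27me3 on both sides within 50 kb was found for 89 wide free regions in CGR8 (7.21%) and 90 in R1 (7.29%), against 12.1% and 11.1% of narrower free regions. More than 100 kb from H3K27me3 in both lines were 320 wide free regions (25.9%). The lines gave a distance within 1 kb of each other for 520 regions (42.1%), with a rank correlation of 0.809 over the 1235. H3K27me3 was nearer in CGR8 for 637, nearer in R1 for 475 and equally near for 123, and the CGR8 H3K27me3 list was also the longer one (14575 against 12511 regions). Large disagreement was rare: 4 regions lay within 10 kb of H3K27me3 in CGR8 and over 100 kb from it in R1, and 5 the other way round.

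The H3K27me3 regions nearest to wide free regions often held H3K4me3 of their own. They numbered 981 in CGR8 and 970 in R1. H3K4me3 overlapped 60.1% of them in CGR8 and 66.9% in R1, against 41.1% and 48.6% of all H3K27me3 regions on these chromosomes. They were 7000 bp (CGR8) and 6000 bp (R1) wide at the median, against 7600 and 6400 bp for all. Of them, 75.7% and 84.1% were found in the other line, against 66.9% and 81.1% for all. H3K27me3 regions nearest to narrower free regions were not set beside them, so none of this is shown to be particular to wide free regions.

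Width, score per kb and agreement between the lines varied little with the distance. From within 10 kb to beyond 100 kb, the median width was 6000 bp in CGR8 in each of 4 distance classes and 5600 to 5800 bp in R1. Score per kb ran from 461 to 491 in CGR8 and from 465 to 496 in R1, and 70.6% to 74.4% of regions were at least 5000 bp wide in R1. Narrower free regions within 10 kb of H3K27me3 had 154 score units per kb in CGR8 and 169 in R1. They had 219 and 239 from 10 to 50 kb, 255 and 270 from 50 to 100 kb, and 230 and 245 beyond 100 kb. Their widths were not matched across these classes. Free regions of 1000 to 2000 bp lay within 5 kb of H3K27me3 more often than those of 4000 to 5000 bp and had lower score per kb. The part of width in these values was not tested.

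In 4 wide free regions H3K27me3 lay at the very next base, on either side. The rule used CGR8 bounds, and in 3 of the 1235 the R1 partner itself overlapped H3K27me3, of R1 in 1 and of CGR8 in all 3. At chr10:40016001-40023000 the next base was marked in both lines, and the R1 partner, which reached 200 bp further out, overlapped R1 H3K27me3 by 200 bp. H3K27me3 adjoined chr15:38227201-38232600 in R1 (69.4 kb in CGR8), chr18:35712401-35718600 in CGR8 (0.2 kb in R1) and chr7:119831001-119836600 in CGR8 (9.2 kb in R1). The next nearest, chr12:12942801-12950800, lay 0.2 kb from it in CGR8 and 40.8 kb in R1. Of these 5, 4 had 661 to 891 score units per kb in CGR8 and 566 to 979 in R1, and the one on chromosome 7 had 28.3 and 38.3. All 5 were at least 5200 bp wide in R1.

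The farthest from H3K27me3 was chr3:21972801-21978400, at 1914 kb in CGR8 and 1916 kb in R1, with 981 score units per kb in CGR8 and 711 in R1. It was followed by chr1:98766601-98773800 (780 kb in CGR8, 779 kb in R1), chr13:81847401-81852400 (741 and 742 kb), chr18:6237801-6242800 (756 and 643 kb) and chr4:5571201-5577000 (611 and 612 kb). Their R1 widths ranged from 2000 to 5800 bp, and 3 of the 5 were at least 5000 bp wide there. The nearest wide free region lay 820 to 14655 kb from each of them.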

How the data were processed

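Per the labels' protocols, formaldehyde-fixed chromatin was sonicated, precipitated with antibodies to H3K4me3 or H3K27me3 and sequenced. The protocol names another supplier of the H3K27me3 antibody than the sample characteristics do. The authors deposited 1 list of regions with a score per library, 4 in all. Bowtie2 2.0.2, SICER 1.1, bedtools 2.20.1 and the build mm9 are named per the submitters' processing notes, with control library and threshold not given in the sources used here. All bounds lie on a grid of 200 bp. Gaps of up to 200 bp (H3K4me3) and 600 bp (H3K27me3) had been joined. The lowest scores in H3K4me3 lists were 38.5 (CGR8) and 37.3 (R1), and in H3K27me3 lists 70.6 and 59.4.

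All 144 (CGR8) and 155 (R1) H3K4me3 scores of regions up to 400 bp equalled, within 1e-06, sums, over windows, of minus the natural log of a Poisson probability with means of 0.740 and 0.706 reads per window. Total read numbers are unknown.

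Overlaps, distances, merged lists and exact (Clopper-Pearson) 95% intervals were computed with Python 3.11.15, numpy 2.4.6, pandas 2.3.3 and scipy 1.17.1, and figures with matplotlib 3.10.9. Intervals of a median come from order statistics. Overlap, distance and merging were tested on simulated lists. R1 score per kb is the summed score of all partners over their summed width. Regions were named by rule: the 10 widest by mean width, the 5 of the highest mean rank of score per kb, the 5 of the highest and of the lowest width ratio, runs of at least 3, and the 5 nearest to and farthest from H3K27me3. The regions and rules were chosen with earlier results of these data known. No p-value was computed over regions. The alternatives tried were width limits of 4000 and 6000 bp, an overlap of at least 50%, merging, the higher-scoring 50% of each list, a margin of 5000 bp around H3K27me3, R1 choosing, the widest partner, and leaving out chromosome 1 or either line.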

Additional observations from a re-analysis of the deposited data

Results flagged for a closer look

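Chromosome X was outside the rule. There, 29 of 647 CGR8 H3K4me3 regions (4.48%) were at least 5000 bp wide, shared with R1 and free of H3K27me3. The share on chromosomes 1 to 19 was 5.02%. The 29 regions had a median width of 6000 bp in CGR8 and 5600 bp in R1, as on chromosomes 1 to 19. Their medians of score per kb were 251 in CGR8 and 214 in R1, and their median distance to the nearer H3K27me3 region was 199.4 kb.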

How the results depend on the processing

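Of 86 recomputed values, 53 stayed near the reported one and 33 did not. Only the log2 width ratio, the ratio of score per kb to carrying regions and the distance ratio to narrower regions have a direction. None of these was reversed, but the log2 width ratio fell to 0.00 with R1 choosing. Counts, shares, scores and distances cannot reverse. Near means within 1.5 times for the number of regions, and otherwise within the 95% interval or the SD between lines. Leaving out the 3 regions whose R1 partner overlapped H3K27me3, an alternative added after seeing the data, moved none of its 8 values beyond that. With R1 choosing, the share wide in the other line was 85.1%, the median log2 width ratio 0.00, the score per kb 495, its ratio to carrying regions 1.52, the distance to H3K27me3 54.2 kb, its ratio to narrower regions 1.16, and the share with another within 100 kb 33.2%. A limit of 4000 bp gave 2343 regions, 75.2% at that limit in R1, 53.4% within 100 kb and a distance ratio of 1.19, and 6000 bp gave 657 regions and 32.6% within 100 kb. The higher-scoring 50% of each list gave a score per kb of 515, a ratio of 1.44, 81.3 kb, a distance ratio of 1.07 and 36.2%. Merging gave a score per kb of 417, a ratio of 1.49 and 45.0%. A margin of 5000 bp around H3K27me3 gave 54.8 kb and a distance ratio of 1.04, which by construction drops the nearest regions. The widest partner gave 67.1% and 0.12. Leaving out either line gave ranges of 465 to 489 (score per kb), 1.37 to 1.56 (ratio to carrying), 58.6 to 63.4 kb, 1.15 to 1.16 (distance ratio), 33.2% to 41.5% within 100 kb and 1017 to 1273 regions. Some shifts follow in part from how the values are built. The reported distance of 51.2 kb is to the nearer of both H3K27me3 lists, and leaving out a line leaves a single list. Medians to a single list were 58.8 kb (CGR8) and 62.0 kb (R1). A shorter H3K27me3 list cannot bring a given region nearer to the mark. The width limit sets how many regions can be neighbours within 100 kb. Apart from this and the margin, the cause of each shift was not tested. No paired analysis was possible because no result came from a test, and ratios within each line stand in the report as values. With 1 library per line and mark and no read totals, absence from a list means not detectable at this depth.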
